A study of Homo sapiens with 6 samples.

Results

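Cholesterol handling during coculture with THP-1 cells was followed through 30 genes of the Caco-2 cell line. They comprise 18 enzymes of cholesterol synthesis, 5 regulators of the SREBP pathway and 7 genes of sterol transport and storage. The genes were chosen by name, with earlier results of these data known, so counts set beside all measured genes are a description. A probe set (a group of oligonucleotides reporting on one transcript) was used only where its annotation gives a single gene symbol, and each gene was read from its brightest probe set by mean log2 signal. This gave values for 28 of the 30 genes, out of 19775 genes with a probe set of their own. No probe set of its own was found for FDFT1, and the 2 probe sets that list CYP51A1 also list a second gene, so neither gene has a value here.

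The Caco-2 line comes from a human colorectal adenocarcinoma and forms a polarised, enterocyte-like monolayer, and the THP-1 line comes from a human monocytic leukaemia. Caco-2 cells grown on a porous support for 14 days were set over THP-1 cells that had received phorbol myristate acetate (PMA) over 4 days, in 12-well plates. Separate Caco-2 RNA samples, taken after 0, 1, 3, 6, 24 and 48 h, were each hybridised to 1 array. There is no replicate, so every value has n = 1, no test was made, and no array of Caco-2 cells kept alone at the later times is analysed here. Genotype and treatment are otherwise the same in all groups, a single cell line.

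Cells make cholesterol from acetyl-CoA through mevalonate, farnesyl diphosphate, squalene and lanosterol. When sterols in the endoplasmic reticulum run low, SCAP carries the SREBP transcription factors to the Golgi apparatus, where they are cleaved and released to switch on genes of synthesis and uptake. When sterols are plentiful, INSIG proteins hold SCAP back, while liver X receptors switch on export genes such as ABCA1 and ABCG1. Enterocytes additionally absorb luminal cholesterol through NPC1L1 and esterify it with SOAT2 for packing into lipoproteins.

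SREBP acts through a promoter letter code, the sterol regulatory element, usually close to a CCAAT box that binds the cofactor NF-Y. RefSeq promoter windows (GRCh38.p14, 250 bases before to 50 after the start of transcription) were found for 25 of the 30 genes. The core of the element, TCACNCCA, searched on both strands, was in 3 of the 25 and in 3.95% of 34943 windows of all genes. With its neighbouring letters in SREBF2 it reads ATCACCCCAC, the classic element, which was in the window of no other of the 25 genes and in 0.0458% of all windows. The CCAAT box was in the windows of 18 of the 25 genes and in 34.6% of all windows, and 2 or more boxes were in those of 11 genes and in 10.8% of all windows. The E-box CACGTG, which SREBP-1 can also bind, was in those of 5 genes and in 7.23% of all windows. A gene with several windows was counted once if any window held the letters, so shares of genes and of windows are not on one footing. A match is a description of letters and not a bound site.

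The 3 promoters with the core are shown, 250 bases up to the start of transcription, because they carry the element together with CCAAT boxes. Capitals mark the core TCACNCCA and the CCAAT box on either strand (CCAAT or ATTGG). All lie on the plus strand, at chr4:165327419-165327668 for MSMO1, chr22:41832855-41833104 for SREBF2 and chr12:109573544-109573793 for MVK.
MSMO1: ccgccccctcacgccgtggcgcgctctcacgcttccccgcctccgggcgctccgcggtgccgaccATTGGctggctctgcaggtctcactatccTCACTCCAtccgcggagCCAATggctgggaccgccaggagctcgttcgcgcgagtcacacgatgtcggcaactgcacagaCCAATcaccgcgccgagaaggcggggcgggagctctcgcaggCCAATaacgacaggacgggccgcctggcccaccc
SREBF2: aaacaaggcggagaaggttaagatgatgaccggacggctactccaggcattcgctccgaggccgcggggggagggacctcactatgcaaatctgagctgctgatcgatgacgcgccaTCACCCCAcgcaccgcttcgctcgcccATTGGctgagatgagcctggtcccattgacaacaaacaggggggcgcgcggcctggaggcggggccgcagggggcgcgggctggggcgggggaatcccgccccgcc
MVK: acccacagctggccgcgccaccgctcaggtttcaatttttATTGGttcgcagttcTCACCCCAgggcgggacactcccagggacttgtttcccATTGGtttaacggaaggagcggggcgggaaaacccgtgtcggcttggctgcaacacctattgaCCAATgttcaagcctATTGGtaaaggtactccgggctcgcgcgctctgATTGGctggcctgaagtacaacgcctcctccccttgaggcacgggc
The core began at base -156 in MSMO1, -133 in SREBF2 and -195 in MVK, counted from the start of transcription. Upstream of the start, MSMO1 had 4 CCAAT boxes, MVK 5 and SREBF2 1. The log2 ratios of signal at 48 h to 0 h were -0.55 for MSMO1, -0.04 for SREBF2 and 0.48 for MVK, whose other probe sets above the floor gave -1.20 and 0.07.

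The deposited values are MAS5 signals on a linear scale, with the same 2% trimmed mean of 93.8 on all 6 arrays. Signals under 16.2, the median of all values, were set to that floor before log2 was taken. Of the 28 genes, 26 were above the floor on all arrays. MVD was above it only at 1 h and 6 h, with signals of 17.7 and 17.2, and ABCG1 on 5 arrays. Across all genes, 14623 were above the floor on at least 1 array and are called measured. In counts of genes, higher or lower means a difference of at least 2-fold, and smaller differences are given with their size. Between probe sets of one gene, the robust SD of the log2 ratio of 1 h to 0 h was 0.15 at signals above 1024 and 0.38 at signals of 64 to 128. This spread covers the probes and not the variation between cultures. The epithelial and enterocyte markers fixed as a list were above the floor on every array for 9 of 9 genes with a probe set, with summed signals from 19648 at 0 h to 24733 at 24 h. Of 14 macrophage markers with a probe set, 6 to 9 were above the floor on an array, and their summed signal was 907 at 0 h and 567 to 789 afterwards. AIF1 alone gave 360.0 of the sum at 0 h and 43.0 at 48 h. PTPRC, SPI1 and CD4 of that list were at or under the floor on all arrays. The ACTB control ratio, 3' over 5' probe set, which is lower with better RNA integrity or labelling, was highest at 0 h (51.2), lowest at 6 h (18.0) and 37.0 at 48 h. GAPDH had a 3'/5' ratio of 4.69 on the 0 h array, with a minimum of 3.54 (6 h) and a maximum of 4.72 (24 h).

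Synthesis enzymes differed in direction during the first 6 h, and most were below their starting signal at 24 and 48 h. At 6 h, 8 of the enzymes were above 0 h and 8 below, beside 5590 and 7691 of 14623 measured genes. The enzymes above included MVD, just above the floor, and the enzymes below included IDI1, with a log2 ratio of -0.01. Of 16 enzymes with a value, none was at least 2-fold higher at any time by the probe set used. The number at least 2-fold lower was 0 at 1 and 3 h, then 1, 4 and 9 on the arrays of 6, 24 and 48 h. Over all measured genes, the shares at least 2-fold lower were, in order of time, 1.44%, 3.52%, 6.45%, 6.14% and 6.14%, and the shares higher were 1.9%, 3.1%, 4.23%, 3.95% and 3.82%. The median log2 ratio of the enzymes was 0.06, 0.08, 0.03, -0.60 and -1.15 at the same times. When all probe sets of a gene were combined by their median, the value at 48 h was -0.57, with 5 enzymes at least 2-fold lower. With probe sets ending in _x_at or _s_at left out, 5 of 10 enzymes were lower at 48 h. Shares of all measured genes were not taken under these other probe set rules. Of 29 enzyme probe sets above the floor on all arrays, 4 were at least 2-fold higher at 3 h and 0 lower. Of 18057 such probe sets of all genes, 5.53% were higher and 3.28% lower. These 4 were dimmer ones of HMGCS1 (3.74-fold), SQLE (3.82-fold) and MVK (2.37-fold and 4.02-fold). The median log2 ratio over all measured genes was between -0.04 and 0.00. Among the brighter genes, those whose highest array reached a signal of 100, 6.84% were at least 2-fold lower at 48 h. Each array took 4 µg of total RNA and had the same trimmed mean, so only relative levels are given. The number of cells and the RNA per cell are not known from these bulk samples.

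**Figure D1:**
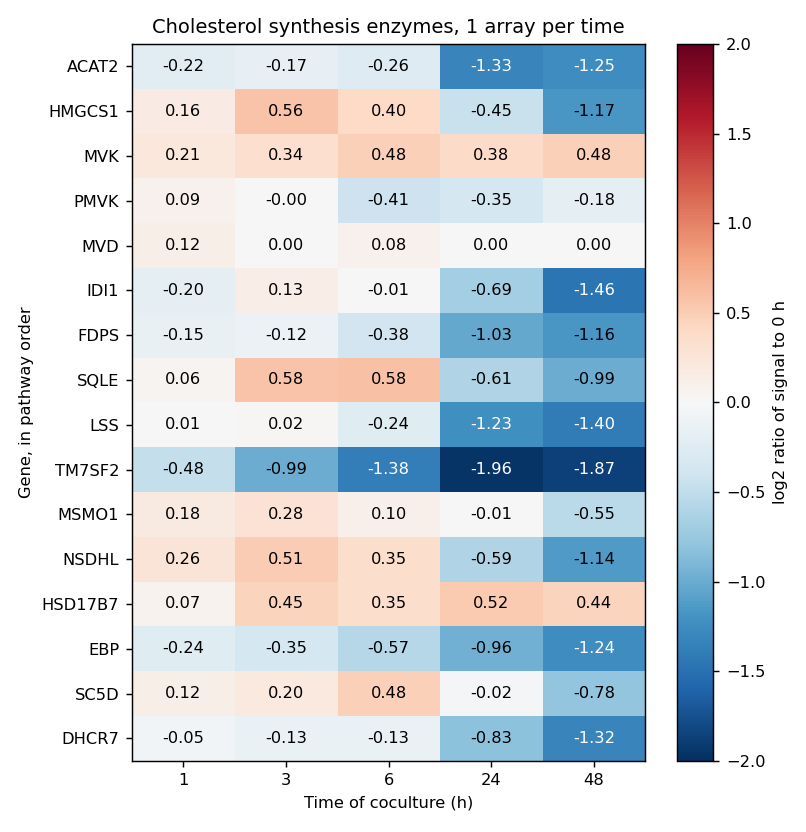
Log2 ratio of MAS5 signal to 0 h (colour and printed value) for 16 cholesterol synthesis enzymes in pathway order (rows) at 1, 3, 6, 24 and 48 h of coculture (columns), 1 array per time. Blue cells gather at 24 and 48 h, where 4 and 9 enzymes were at least 2-fold lower, while MVK and HSD17B7 were above 0 h throughout.

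The first steps make mevalonate. ACAT2, the thiolase that joins acetyl-CoA units, had signals of 1162, 999, 1033, 969, 463 and 489 at 0, 1, 3, 6, 24 and 48 h. It was level for 6 h and then lower, 2.51-fold after 24 h and 2.37-fold after 48 h. HMGCS1, which makes HMG-CoA, had signals of 3372, 3770.1, 4984, 4451, 2469.7 and 1502. It was highest at 3 h, 1.48-fold above 0 h, and at 48 h it was 2.25-fold lower. A dimmer probe set of HMGCS1 was also highest at 3 h and lowest at 48 h, with signals of 101, 223, 377, 342, 137 and 70.9. It was 3.74-fold above 0 h at 3 h and 1.42-fold below it at 48 h. At 24 h the probe sets differed in direction, with log2 ratios of 0.45 for the dimmer one and -0.45 for the one used.

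Mevalonate is phosphorylated by MVK and PMVK and decarboxylated by MVD. The MVK probe set used had signals of 130.4, 151, 165, 181, 170 and 182, all above 0 h. The other probe sets of MVK above the floor did not share that course. One had signals of 62.0, 101, 147, 133, 46.1 and 26.9, highest at 3 h and 2.31-fold lower at 48 h. The third had signals of 51.8, 129, 208, 200.02, 52.2 and 54.2, 4.02-fold higher at 3 h and back near its start at 24 h. Both of these were highest at 3 h, and the 3 probe sets differ in direction at 48 h. PMVK had signals between 43.1 and 61.2 and never differed 2-fold. MVD was at or just above the floor, so it has no fold.

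IDI1 and FDPS make the isoprenoid units and farnesyl diphosphate. IDI1 had signals of 4783, 4163, 5246, 4736, 2973 and 1743, 2.74-fold lower at 48 h. Its second bright probe set had signals of 3486, 3244, 3869.6, 3935, 2223 and 1352, with a log2 ratio of -1.37 at 48 h. The remaining pair of IDI1 probe sets, with signals of 72.8 to 188, had log2 ratios of 0.13 and 0.82 there. Both bright probe sets end in _x_at, the manufacturer's mark for probes that may match other transcripts. FDPS had signals of 994, 894, 915, 765, 487 and 444, and was lower at 24 h (2.04-fold) and at 48 h (2.24-fold).

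Squalene epoxidation by SQLE and cyclisation by LSS give lanosterol, the first sterol. SQLE had signals of 1302, 1355, 1939.7, 1952, 855 and 656. Its log2 ratio was 0.58 at 6 h, and at 48 h it was 1.98-fold below 0 h, just short of 2-fold. Both other SQLE probe sets above the floor on all arrays were also above 0 h at 3 and 6 h, one of them 4.24-fold at 6 h. LSS had signals of 1077, 1082, 1092, 915, 460 and 408, level to 3 h, then lower at 24 h by 2.34-fold and at 48 h by 2.64-fold.

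Lanosterol is turned into cholesterol by demethylation, double-bond shifts and reductions. TM7SF2, a sterol C14 reductase, had signals of 499, 357, 251, 192, 128 and 136. It was below 0 h on each later array, the fold being 2.59 after 6 h, 3.89 after 24 h and 3.66 after 48 h. EBP, the sterol isomerase, had signals of 1239.6, 1053, 974, 834, 636 and 523, below 0 h at every time, and 2.37-fold lower at 48 h. One EBP probe set ran with it (log2 ratio -1.67 at 48 h) and another did not, being above 0 h at every time (0.11 at 48 h, with a maximum of 0.85 at 3 h).

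NSDHL, which acts with MSMO1 in removing the C4 methyl groups, had signals of 508, 608, 721, 645, 336 and 231. It was 1.42-fold above 0 h at 3 h and 2.20-fold below at 48 h. MSMO1 had signals of 3833, 4330.2, 4668, 4119, 3808 and 2627, with its maximum at 3 h and its minimum at 48 h but no 2-fold difference. HSD17B7, the sterol 3-ketoreductase, had signals from 495 at 0 h to 709 at 24 h. Its one probe set ends in _x_at, and the gene has a closely related pseudogene, so its value is uncertain.

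SC5D, the C5 desaturase, had signals of 3262, 3533, 3755, 4563, 3209.7 and 1898, highest at 6 h and 1.72-fold lower at 48 h. DHCR7, which reduces the last double bond in one branch of the pathway, had signals of 1541, 1485, 1408, 1411, 868 and 615.5. It was 2.50-fold lower at 48 h, where its second probe set had a log2 ratio of -0.73. That second probe set was above 0 h at 1, 3 and 6 h, with log2 ratios of 0.27, 0.48 and 0.18.

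Of the SREBP regulators, INSIG1, SREBF1 and SREBF2 had higher signals from 1 to 6 h and were at or below their starting signal at 48 h, while INSIG2 and SCAP ran otherwise. In order of time, the median of their log2 ratios was 0.68, 0.43, 0.69, -0.40 and -0.44. Of the 5 genes, 1 was at least 2-fold higher at 1, 3 and 6 h, SREBF1 each time, beside 1.9%, 3.1% and 4.23% of all measured genes, and none was 2-fold lower than at 0 h. SREBF1 encodes SREBP-1, the form that drives fatty acid synthesis above all, and its signals were 91.2, 191, 207, 201, 131 and 87.6. It was higher at 1 h by 2.10-fold and at 3 h by 2.27-fold, and at 48 h it differed from 0 h by a log2 ratio of -0.06.

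SREBF2 encodes SREBP-2, the form that acts mainly on cholesterol genes, and carries the classic element in its own promoter shown above. Its signals were 150.4, 240.4, 203, 262, 208 and 147, so the log2 ratio was 0.80 at 6 h but -0.04 at 48 h. All 3 of its probe sets were above 0 h at 1, 3, 6 and 24 h.

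INSIG1, the SREBP-induced retention protein, had signals of 2444, 4014, 4701, 3693, 1847 and 1274. It was 1.92-fold higher at 3 h and 1.92-fold lower at 48 h, neither past 2-fold with this probe set. With both other probe sets the log2 ratio was 1.06 and 1.27 at 3 h and -1.49 and -1.54 at 48 h, past 2-fold each time. INSIG2, its relative, had signals of 535, 345, 412, 865, 279 and 361. It was low at 1 and 3 h, highest at 6 h and lowest at 24 h, so it did not run with INSIG1. SCAP had signals of 386, 427, 302, 259, 261 and 284, with a log2 ratio of -0.58 at 6 h.

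**Figure D2:**
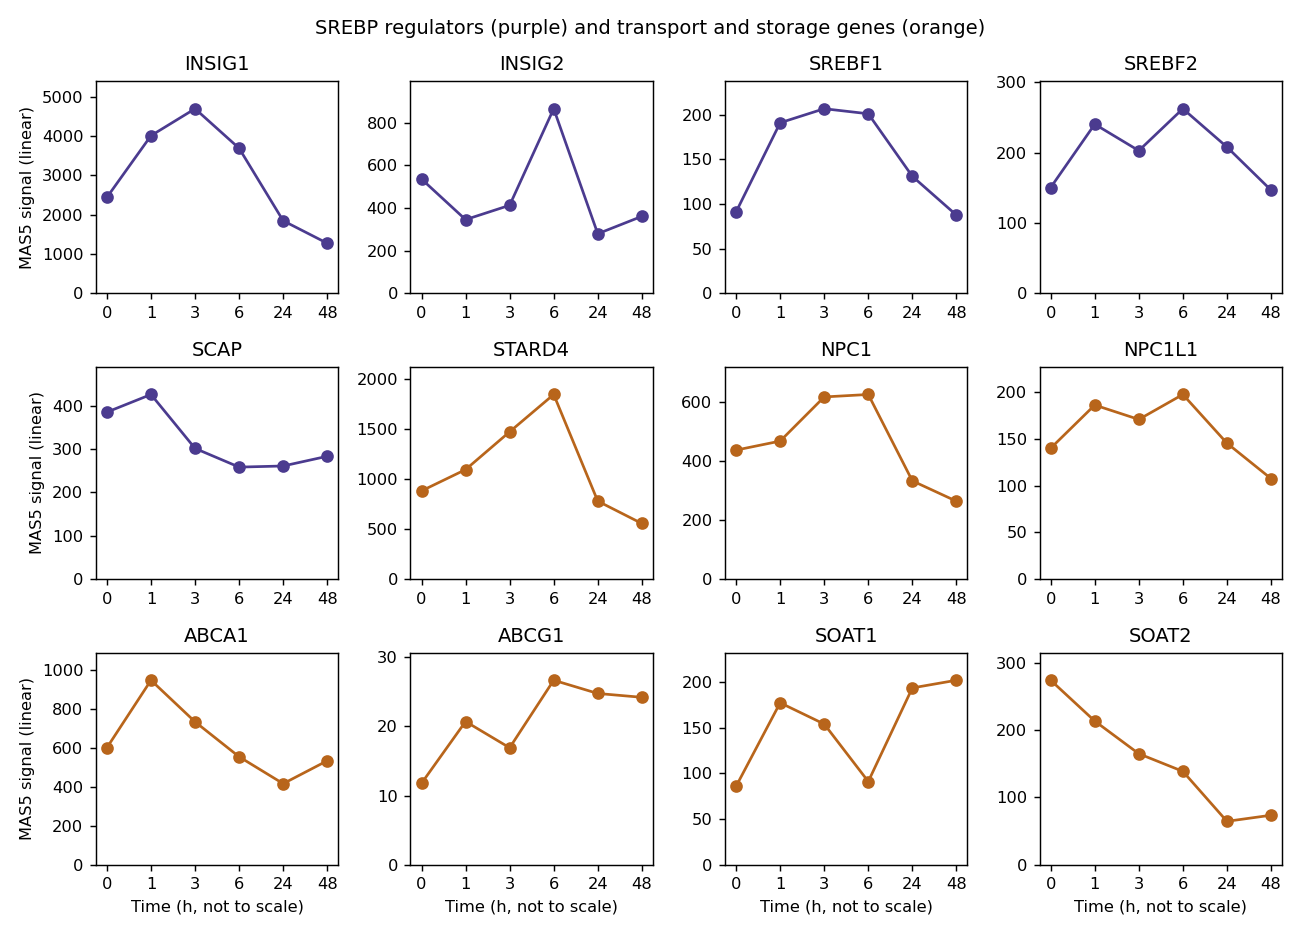
MAS5 signal (linear, from 0) of 5 SREBP regulators (purple) and 7 transport and storage genes (orange) at 6 times, 1 array per time, with times evenly spaced. INSIG1, SREBF1, STARD4 and NPC1 peak at 3 or 6 h and are lowest at 48 h, SOAT2 is highest at 0 h, and SOAT1 is highest at 48 h.

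Among the transport and storage genes, STARD4, NPC1 and NPC1L1 were highest at 6 h and lowest at 48 h, while the esterifying enzymes SOAT1 and SOAT2 differed in direction. The median log2 ratio of the 7 genes was 0.35, 0.29, 0.50, -0.18 and -0.38. That at 6 h was 0.085 with probe sets combined by their median, and against the 1 h array the medians at 3 and 6 h were -0.20 and 0.085. The 0.35 at 1 h was the ratio of ABCG1 itself, a gene near the floor and under it at 0 h. Between probe sets of such low signal the robust SD was 0.50. A floor at the 65th percentile leaves ABCG1 out. The medians of the 6 other genes to 0 h were then 0.36, 0.39, 0.29, -0.29 and -0.52. At least 2-fold higher were 1 gene at 1 h (SOAT1), 1 at 6 h (STARD4), and 1 at both 24 and 48 h (SOAT1), and 1 was lower at both 24 and 48 h (SOAT2). Of all measured genes, 1.9%, 4.23%, 3.95% and 3.82% were higher at 1, 6, 24 and 48 h, and 6.14% were lower at each of the last times. STARD4, a soluble sterol carrier, had signals of 879, 1092, 1469, 1841, 777 and 554, 2.09-fold higher at 6 h and 1.59-fold lower at 48 h. NPC1, which releases cholesterol from lysosomes, had signals of 436, 466, 616, 624, 332 and 263. NPC1L1, the absorptive cholesterol transporter, had signals of 140.1, 186, 171, 198, 146 and 108, highest at 6 h and lowest at 48 h.

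ABCA1 exports cholesterol to apolipoprotein A-I. The probe set used had signals of 603, 949.5, 736, 556, 417 and 535, 1.58-fold higher at 1 h and 1.44-fold lower at 24 h. The second probe set had signals of 743, 683, 658, 478, 235 and 358, 3.17-fold lower at 24 h and without the high value at 1 h. Both were lowest at 24 h. ABCG1 was near the floor, with signals of 11.8 to 26.7, and no fold is given for it.

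SOAT2, the cholesterol acyltransferase of enterocytes and hepatocytes, had signals of 274, 213, 165, 139, 64.5 and 73.5. It was below 0 h on each later array, by 4.25-fold at 24 h and 3.72-fold at 48 h, the largest fold between 0 h and another time among the 28 genes. SOAT1, the more widely expressed acyltransferase, had signals of 85.8, 177, 154, 91.0, 193 and 202. It was higher at 1 h by 2.06-fold and at 48 h by 2.35-fold, with a value near the start at 6 h. The other SOAT1 probe sets did not follow: one had signals of 148, 143, 125, 92.7, 99.6 and 105, below 0 h at each time, and the other stayed between 36.1 and 43.0. A higher SOAT1 thus rests on 1 of 3 probe sets. SOAT1 is also a macrophage gene. The summed signal of the macrophage markers given above was highest at 0 h, at 907, and was 744 at 48 h, with single markers going both ways. The order of these 2 sums rests on AIF1, whose probe set ends in _x_at. LYZ had signals of 247, 296, 262, 199, 366 and 412, MMP9 21.6, 32.0, 24.7, 119, 47.0 and 62.2, and TYROBP 14.0 at 0 h and 25.5 at 48 h. AIF1 went from 360.0 at 0 h to 43.0 at 48 h, and PTPRC, SPI1 and CD4 were at or under the floor on all arrays. Their part in the SOAT1 values was not tested.

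**Figure D3:**
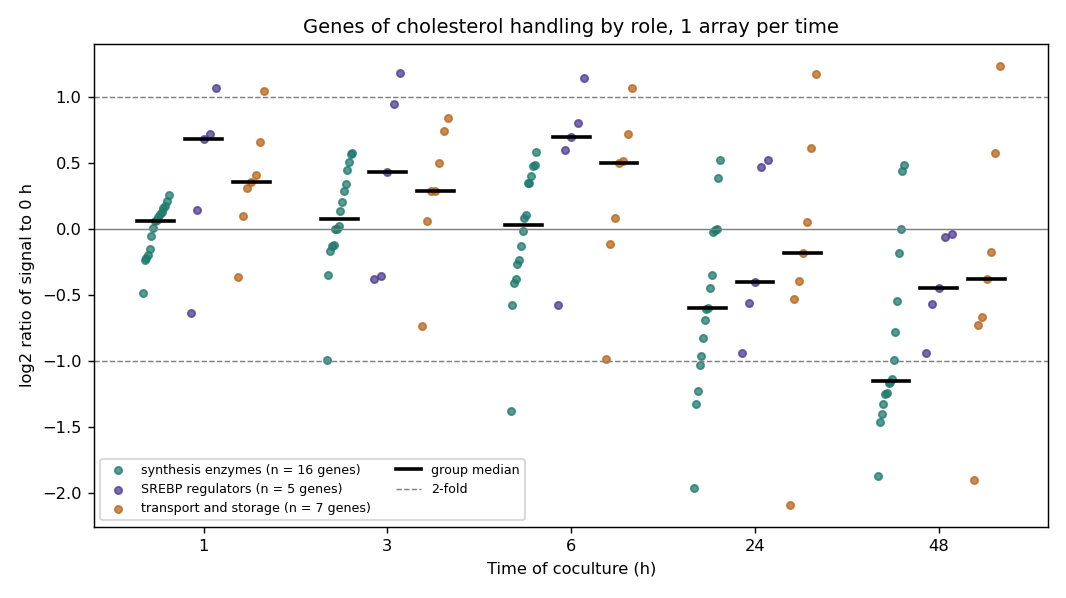
Log2 ratio of signal to 0 h (y axis) at each coculture time (x axis) for 16 synthesis enzymes, 5 SREBP regulators and 7 transport and storage genes; each point is 1 gene, black bars are group medians and dashed lines mark 2-fold. The regulator and transport medians lie above 0 up to 6 h, though against the 1 h array the transport median at 3 h was -0.20, and all 3 medians lie below 0 at 24 and 48 h. The transport median at 1 h is the ratio of ABCG1, a gene near the floor.

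A pair of courses recurred across the roles. A course high at 3 and 6 h and low at 48 h, by at least 1.2-fold from 0 h in each case, was seen in 7 of the 28 genes: HMGCS1, SQLE, NSDHL, INSIG1, STARD4, NPC1 and NPC1L1. The same course was found in 1.33% of all measured genes. The opposite start, at least 1.2-fold lower at 3, 6 and 48 h, was seen in TM7SF2, EBP, SCAP and SOAT2, 4 of 28, which is 14.3%, and in 18.7% of all measured genes, so the share in the 28 genes was near the background. Both courses and their cutoff were set after the values were seen, the cutoff of 1.2-fold in place of a slightly stricter one tried first that left out NPC1L1, and they are a description. The count of the first course moves with the cutoff: it was 8 of 28 genes at 1.1-fold (2.93% of all measured genes), 5 at 1.3-fold (0.574%), 4 at 1.4-fold (0.253%) and 2, INSIG1 and STARD4, at 1.5-fold (0.137%). The course low from the start held 5 of 28 genes (17.9%) at 1.1-fold, beside 26% of all measured genes. From 1.3-fold to 1.5-fold it held 2, TM7SF2 and SOAT2 (7.14%). The shares of all measured genes were 13.3% at 1.3-fold, 9.14% at 1.4-fold and 6.23% at 1.5-fold. Of the 26 genes above the floor on all arrays, 14 had their highest signal at 3 or 6 h and 16 their lowest at 48 h. Over all 10446 such genes, the highest signal was at 3 h for 9.59% and at 6 h for 13.0%, and the lowest at 48 h for 20.3%.

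A comparison without the 0 h array, chosen after the data were seen, set the later times against 6 h. Against 6 h, 2 of 16 synthesis enzymes were at least 2-fold lower at 24 h and 7 at 48 h, where 2.41% and 3.78% of all measured genes were. At 48 h these were HMGCS1, IDI1, SQLE, LSS, NSDHL, SC5D and DHCR7. Among the 12 other genes, INSIG1, INSIG2, SREBF1, STARD4 and NPC1 were at least 2-fold lower at 48 h than at 6 h, and SOAT1 was higher, as were 3.17% of all measured genes. The largest of these was the 3.32-fold difference of STARD4. Enzymes already below 0 h at 6 h by the probe set used differed in size. TM7SF2 and FDPS were lower by 1.41-fold and 1.72-fold from 6 to 48 h, and LSS and DHCR7 by 2.24-fold and 2.29-fold. The arrays of this comparison had ACTB 3' to 5' ratios of 18.0 at 6 h and 37.0 at 48 h, and the part of RNA integrity or labelling in it was not tested.

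Different probe sets of one gene gave the same direction more often for some genes than for others. Of 48 probe sets of the 28 genes that were above the floor on all arrays, 39 were below 0 h at 48 h and 16 at least 2-fold lower, beside 52.5% and 5.64% of 18057 such probe sets of all genes. At 3 h, 34 of the 48 were above 0 h and 7 at least 2-fold higher, beside 46.5% and 5.53% of all. Of 14 genes with at least 2 such probe sets, all probe sets ran in the same direction in 8 genes at 3 h and in 9 at 48 h. The dimmer probe sets of HMGCS1, MVK and SQLE gave the largest early ratios (1.90, 2.01 and 1.93 on the log2 scale at 3 h), where the probe sets used gave 0.56, 0.34 and 0.58. At that time the ACTB 3' to 5' ratio was 22.9, against 51.2 at 0 h, and its part in these values was not tested.

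**Figure D4:**
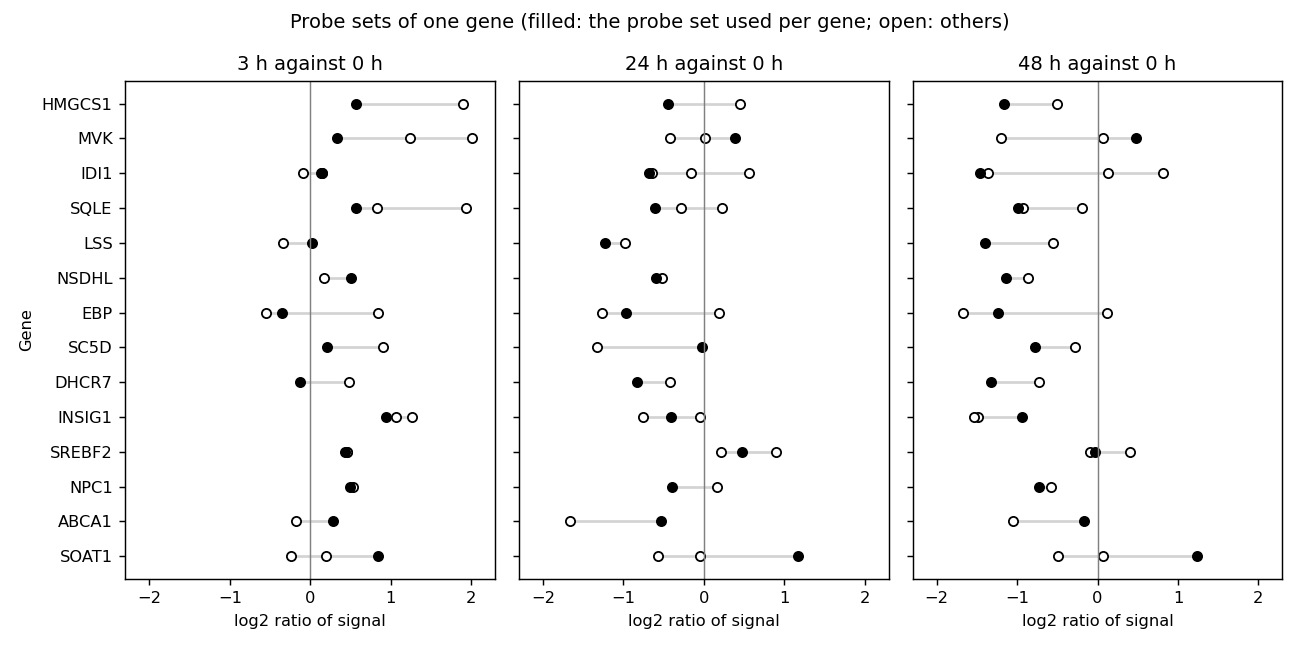
Log2 ratio of signal to 0 h (x axis) at 3, 24 and 48 h for each probe set above the floor on all arrays, for the 14 genes with at least 2 of them (y axis); filled points are the probe sets used and open points the others. At 48 h the probe sets of INSIG1, LSS, DHCR7 and NSDHL are all below 0, while those of IDI1, MVK, EBP and SOAT1 lie on both sides.

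Further genes of the pathway, taken from lists of their roles, were examined beside these. Of 8 measured enzymes of other sterol and isoprenoid steps, none was 2-fold different from 0 h at any time. At 48 h, 7 of the 8 were below 0 h, beside 7377 of 14623 measured genes. The median log2 ratio of the 8 was -0.57 there. Of 8 measured genes of SREBP control, 1 was at least 2-fold higher at 6, 24 and 48 h, beside 4.23%, 3.95% and 3.82% of all measured genes. This was PAQR3, a Golgi protein that binds SCAP. Its signals were 71.7, 93.3, 98.9, 216, 165 and 184. The proteases that cleave SREBP, MBTPS1 and MBTPS2, had log2 ratios of -0.27 and -0.71 at 48 h.

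Of 8 measured genes of fatty acid synthesis, 2 were at least 2-fold lower at 48 h, beside 6.14% of all measured genes, and none was 2-fold higher at any time. FASN, the fatty acid synthase, had signals of 901, 823, 506, 507, 292 and 209 and was 4.31-fold lower at 48 h, having been below 0 h on every array. ACSS2, which makes cytosolic acetyl-CoA from acetate, had signals of 784, 738, 837, 849, 498 and 288 and was 2.72-fold lower at 48 h. SCD, the stearoyl-CoA desaturase, did not differ 2-fold, with signals of 5367 at 0 h and 3801 at 48 h.

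Of 12 measured genes of other sterol transport and liver X receptor action, 1 was higher and 3 were lower at 48 h, beside 3.82% and 6.14% of all measured genes. NR1H3, the liver X receptor alpha, had signals of 162, 128, 126, 105, 53.3 and 67.3, 3.03-fold lower at 24 h. CYP27A1, which makes 27-hydroxycholesterol, had signals of 692, 758, 637, 476, 334 and 287, 2.41-fold lower at 48 h. GRAMD1A, a sterol transfer protein, was 2.18-fold lower at 48 h from a signal of 97.0. NCEH1, which hydrolyses cholesteryl ester, had signals of 61.8, 70.0, 64.6, 45.5, 210 and 188, 3.40-fold higher at 24 h. MYLIP, a liver X receptor target that degrades lipoprotein receptors, had signals of 523, 288, 381, 481, 648 and 1012. It was low at 1 h and 1.93-fold above 0 h at 48 h, short of 2-fold.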

How the data were processed

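The deposited intensities are MAS5 signals per probe set on a linear scale, per the labels, which name MAS5 in the submitters' processing notes; for its version, scaling target and detection calls the sources used here give nothing. Per the labels' protocols, 4 µg of total RNA per array was made into biotin-labelled cRNA. Of 54675 probe sets, 41097 carry 1 symbol, 1801 several and 11777 none. The 62 control probe sets were left out of gene values, and 41037 of the 41091 used matched a RefSeq gene table (GRCh38.p14), which updated symbols. The probe set of highest mean log2 signal, taken before the floor, stood for a gene. Signals were then floored at 16.2, the 50th percentile, and log2 ratios to 0 h were taken (Python 3.11.15, numpy 2.4.6, pandas 2.3.3). A call needed a 2-fold difference. The rule was run on simulated data with larger changes set into genes of bright 0 h signal. That checks the calculation and not the precision of the arrays. With 1 array per time no test, error or p-value exists, and precision is limited by the number of arrays. All 30 genes are named; values on all arrays are printed for those past 2-fold or with disagreeing probe sets, and for further genes where they help to follow a step. Promoters with a sterol element core were printed. The genes and lists were chosen with earlier results of these data known. The settings varied were quantile or median scaling, floors at the 30th and 65th percentiles, a pseudocount, other probe set rules, a 1 h baseline and 1.5-fold or 3-fold rules; a 6 h baseline and other cutoffs for the time courses were added after the data were seen. Alternatives are counted as moving a median when it shifts by more than the probe set spread of its genes.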

Additional observations from a re-analysis of the deposited data

How the results depend on the processing

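Under quantile normalization, a common median, both other floors (6.38 and 37.5) and the pseudocount of 16.2, no median of a gene group moved by more than the spread between probe sets (0.22 for synthesis enzymes, 0.26 for regulators, 0.35 for transport genes), and no count of lower synthesis enzymes moved past 1.5 times. That spread is of single genes at 1 h against 0 h, so it is a wide limit for a median. The spread was larger than the size of the synthesis medians at 1, 3 and 6 h and of the transport medians at 3 and 24 h. The synthesis median at 6 h kept its sign under 6 of 8 alternatives. When the probe sets of each gene were combined by their median, the synthesis median at 48 h was -0.57 with 5 enzymes lower, and the transport median at 6 h was 0.085. Leaving out probe sets ending in _x_at or _s_at, which keeps 10 enzymes, the synthesis median at 3 h was 0.31, 0 enzymes were lower at 6 h and 5 at 48 h, and IDI1 at 48 h had a log2 ratio of 0.13 instead of -1.46; the cause was not tested. Against 1 h, the regulator medians were 0.11, 0.074 and -0.71 and the transport medians -0.20, 0.085 and -0.83 at 3, 6 and 48 h, with 0 synthesis enzymes lower at 6 h. Against 6 h, chosen after the data were seen, the medians at 48 h were -0.88 for synthesis, -1.20 for regulators and -0.88 for transport, with 2 synthesis enzymes lower at 24 h. A 1.5-fold rule gave 1 enzyme lower at 3 h and 9 at 24 h. A 3-fold rule gave 0 at 6 h and 1 at both 24 and 48 h. No share of all measured genes was taken under these fold rules or the other probe set rules. Their counts show only how the number of enzymes moves with the rule. The synthesis medians at 24 and 48 h were below 0 under each of the 9 alternatives. No replicate could be left out, and no paired analysis was possible because each time has 1 array and no replicate.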
